A study of Rattus norvegicus with 9 samples.

Results

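The genes of the proteasome were described across 9 arrays of rat right ventricle. The members were the single-symbol features of the deposited table whose gene symbol begins with Psm, then a letter from a to g and a number, with the feature of the highest mean over the 9 arrays kept for each gene. This rule gave 47 genes from 54 features, of 14506 genes that had a single-symbol feature. Of the 47 genes, 45 encode subunits, activators or assembly chaperones of the proteasome. The other 2, Psmc3ip, whose product acts in meiotic recombination, and Psme3ip1, whose product binds an activator subunit, match the rule by name only. Psma3, Psma8, Psmf1 and Psmg3 were without a single-symbol feature and were not analysed here. The feature of Psma3l, a symbol that RefSeq lists as a synonym of Psma3, was kept as a member.

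All 3 groups were right ventricles of male SD (Sprague-Dawley) rats, with 3 arrays each. The sham-operated group was compared with rats with a band around the pulmonary artery (PAB), an operation that raises the load on the right ventricle. Banded rats were divided at 4 weeks after the operation into an F+ group, with a fibrotic area above 6.5%, and an F- group, with an area below it. All arrays measured bulk tissue, and no source gives the age of these rats. Nor is it stated that the arrays of a group were hybridized with RNA of separate animals, so p-values cover the spread between arrays only, and this spread may be technical.

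The proteasome breaks down proteins that carry chains of ubiquitin. Its 20S core is a barrel of alpha and beta rings with the cutting sites inside, and the 19S cap recognizes, unfolds and feeds in the substrate. Under interferon gamma, 3 inducible beta subunits can take the place of the constitutive catalytic ones to form the immunoproteasome, whose peptides are loaded on MHC class I molecules. In heart muscle the proteasome takes part in the turnover of sarcomeric proteins.

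The deposited table held 1 intensity for each of 29215 features on each array, from 1 to 190.4, with array medians between 33.4 and 33.9 and correlations between arrays of 0.9784 to 0.9901. Their scale is not stated in any source used here. Each log2 difference below is one between group means of log2 values as deposited and is valid only on that scale. If the values are squares of log2 signals, the differences of their square roots are log2 folds, and these were larger by number, with a median over the proteasome genes of -0.1 in place of -0.035 for F+ against F-. The levels of different genes cannot be compared on these arrays. All 10 cardiomyocyte markers were bright, with no value under 135.1. Within its group, sham array 2 stood apart with high values of the atrial genes Myl7 (149.9) and Sln (115.1). F- array 1 did so within the F- group with high values of Nppa (155.6) and Postn (86.7). Nppa was also high on sham array 2 (135.8) and on the F+ arrays (134.3 to 149.5), where Postn was 65.5 to 77.6.

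The proteasome genes differed little between the groups, and 0 of 47 passed an adjusted p of 0.05 in any comparison in limma. They nevertheless leaned to one side. In F+ against F-, 42 of 47 had a lower mean, whereas 51.6% of all features and 57.7% of the 9738 brightest features did. In F- against sham, 34 of 47 had a higher mean, against 48.2% of all features and 57.2% of the brightest. The brightest features are given because 41 of the 47 genes belonged to them. The F- mean was the highest of the 3 groups for 33 genes, compared to 33.6% of all features. The comparisons share the F- arrays, so these counts are not separate observations. In bulk tissue, fewer cells of a type and less RNA per cell cannot be told apart.

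Per array, the median deviation of the 47 genes from their mean over 9 arrays was 0.016, 0.019 and 0.018 (log2) on the F- arrays. It was 0.0027, -0.0053 and -0.0059 in the sham-operated group. On the F+ arrays it was -0.013, -0.018 and -0.0095. The 3 groups did not overlap in this median, and their arrays varied around the group means with an SD of 0.0038. After quantile normalization the F- arrays gave 0.0064, 0.025 and 0.0086 and sham array 1 gave 0.0089, so the F- and sham-operated groups then overlapped. The F+ arrays, at -0.012, -0.021 and -0.0072, stayed below all F- arrays.

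**Figure D1:**
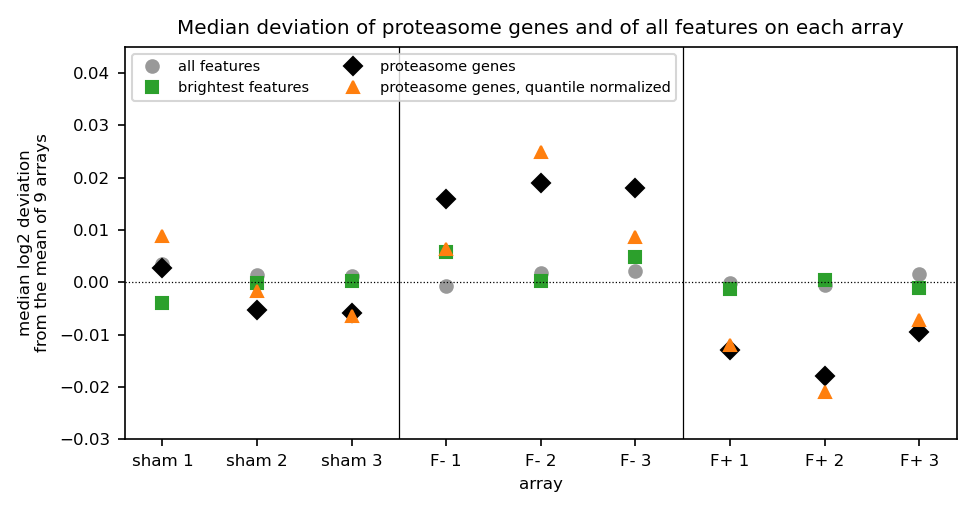
Median log2 deviation (y axis) from the mean of 9 arrays on each array (x axis) for all features, the brightest features, and the 47 proteasome genes as deposited and after quantile normalization. The proteasome genes as deposited sit at 0.016 to 0.019 on the F- arrays and at -0.018 to -0.0095 on the F+ arrays, while all features stay close to 0 on every array.

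**Figure D2:**
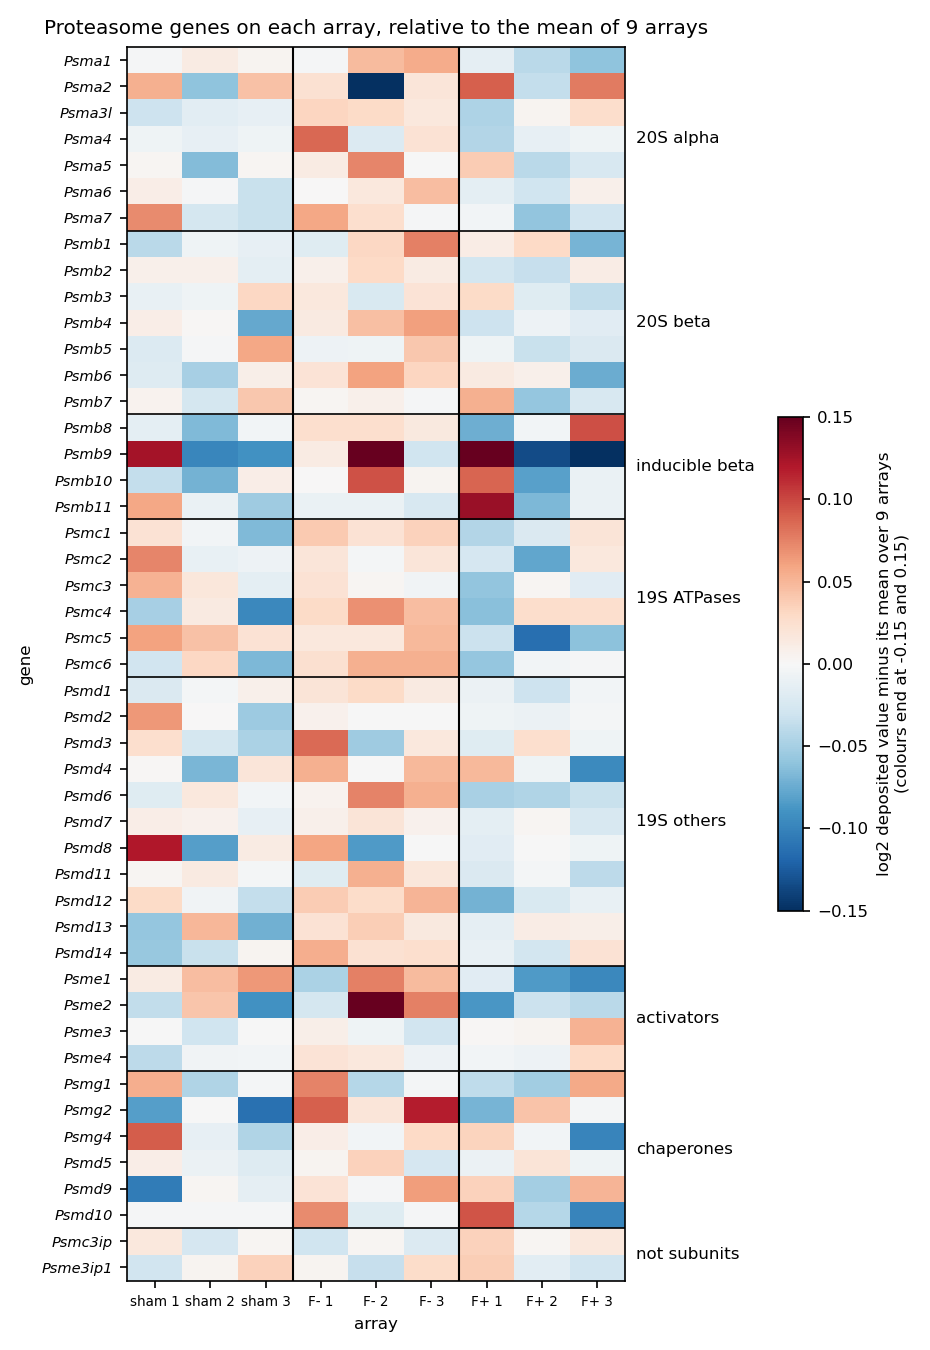
Log2 deposited value of each of the 47 genes (rows, grouped by role) on each array (columns) as a difference from the mean of the gene over 9 arrays, red for higher and blue for lower, with colours that end at -0.15 and 0.15. The F- columns are mostly red and the F+ columns mostly blue, and in rows such as Psmb9 and Psma2 arrays of the same group have opposite colours.

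The first question was how fibrotic and non-fibrotic banded ventricles compare. In F+ against F-, the median log2 difference of the 47 genes was -0.035, with a range from -0.15 to 0.1, beside a median of -0.0023 over all features and -0.0082 over the brightest. Although 0 of 47 passed the adjusted threshold (0.00342% of all features did), 4 genes had an unadjusted p under 0.05 in limma, all with the lower mean in the F+ group. The shares over all features were 3.76% lower and 3.65% higher. For 16 genes every F+ value lay below every F- value, and for 0 above, beside 5.28% and 4.46% of all features and 9.61% and 5.93% of the brightest. The count of 16 depends on the scaling, as it was 6 after quantile normalization and 14 after median centring. The number of genes with a higher mean was 5, and it was 9 without F- array 1, without F+ array 2 or without F+ array 3. Without F- array 3, only 2 genes had an unadjusted p under 0.05.

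The 7 alpha ring genes form the gated outer rings of the core. In F+ against F-, 6 of 7 had a lower mean and the median difference was -0.037. Psma1, an alpha subunit, gave 90.9, 94.1 and 94.6 on the F- arrays against 90.2, 88.5 and 87.3 on the F+ arrays. The means of 93.2 ± 2.01 (F-) and 88.7 ± 1.46 (F+; SD, n = 3 each) gave a log2 difference of -0.072 (standard error 0.026, unadjusted p = 0.0245, adjusted p = 0.651 in limma). The groups did not overlap, and the sham arrays, at 90.9, 91.8 and 91.3, were above all F+ arrays and within the F- range. Psma2 was the exception of this ring, with 64, 58.7 and 63.5 on the F+ arrays against 61.1, 52 and 60.9 on the F- arrays, where F- array 2 was the lowest of the 9 arrays.

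The 7 constitutive beta ring genes include the 3 catalytic subunits, and 7 of 7 had a lower mean in the F+ group, with differences from -0.059 to -0.012. Psmb5, which carries the chymotrypsin-like site, gave 115.8, 115.9 and 119.8 on the F- arrays against 115.9, 113.8 and 114.7 on the F+ arrays. The log2 difference was -0.029 (95% confidence interval -0.097 to 0.038), or -0.013 without F- array 3, and the groups overlapped. Psmb6, which carries the caspase-like site, gave 67.8, 69.7 and 68.4 on the F- arrays against 67.5, 67.2 and 63.5 on the F+ arrays. These did not overlap, and the difference was -0.055 (-0.13 to 0.019, adjusted p = 0.719 in limma), or -0.027 without F+ array 3. Psmb7, which carries the trypsin-like site, had values of 103.2, 103.5 and 102.9 in the F- group, inside the range of 98.9 to 106.9 on the F+ arrays.

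All 6 ATPase genes of the 19S cap, which unfold the substrate and open the gate of the core, had a lower mean in the F+ group, with a median difference of -0.049. Psmc5 showed the largest statistic of all 47 genes. Its values were 51.6, 51.6 and 52.8 on the F- arrays, 53.2, 52.6 and 51.8 on the sham arrays and 49.9, 47.2 and 48.9 on the F+ arrays. Every F+ array was thus below every other array, while F- and sham arrays overlapped. The log2 difference from the F- group was -0.096 (standard error 0.028, unadjusted p = 0.0101, adjusted p = 0.617 in limma). Psmc1, Psmc4 and Psmc6 also had no overlap between the F+ and F- groups.

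Of the 11 other genes of the 19S cap, 10 had a lower mean in the F+ group and Psmd8 had nearly the same mean, with F- values of 71.5, 64.7 and 68.6 around F+ values of 67.8, 68.6 and 68.3. Psmd6, a structural subunit of the lid, gave 82.6, 86.7 and 85.4 on the F- arrays against 79.6, 79.8 and 80.4 on the F+ arrays. The sham arrays, at 81.3, 83.2 and 82.1, were also above all F+ arrays. The F+ and F- means, 79.9 ± 0.416 and 84.9 ± 2.1 (SD, n = 3 each), differed by -0.087 on the log2 scale (standard error 0.026, unadjusted p = 0.0106, adjusted p = 0.619 in limma). Psmd12, another scaffold of the lid, gave 85.2, 84.6 and 86 on the F- arrays against 79, 81.7 and 82.4 on the F+ arrays. This difference was -0.074 (standard error 0.028, unadjusted p = 0.0301, adjusted p = 0.668 in limma), and the groups did not overlap.

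The activators that bind the core in place of the 19S cap did not all lie on one side. Psme1 and Psme2 encode the alpha and beta subunits of PA28, which is induced by interferon gamma. Psme2 gave 90.3, 105.4 and 96.9 on the F- arrays against 86.5, 89.9 and 89.4 on the F+ arrays, a log2 difference of -0.14 (95% confidence interval -0.27 to 0.00051, adjusted p = 0.672 in limma). F- array 2 carried much of this, and without it the difference was -0.079. Psme1 gave 105.9, 115.3 and 113.1 on the F- arrays against 108.2, 103.2 and 102.4 on the F+ arrays, so the groups overlapped through F- array 1, and the difference was -0.091 (-0.18 to 0.00039). Psme3, the subunit of the nuclear PA28 gamma, gave 85.5, 84.6 and 83.3 on the F- arrays against 85.1, 85.2 and 88.1 on the F+ arrays. Psme4, which encodes the nuclear activator PA200, gave 106.9, 106.5 and 104.8 in the F- group and 105.1, 104.8 and 107.6 in the F+ group. Both of these overlapped between the groups.

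**Figure D3:**
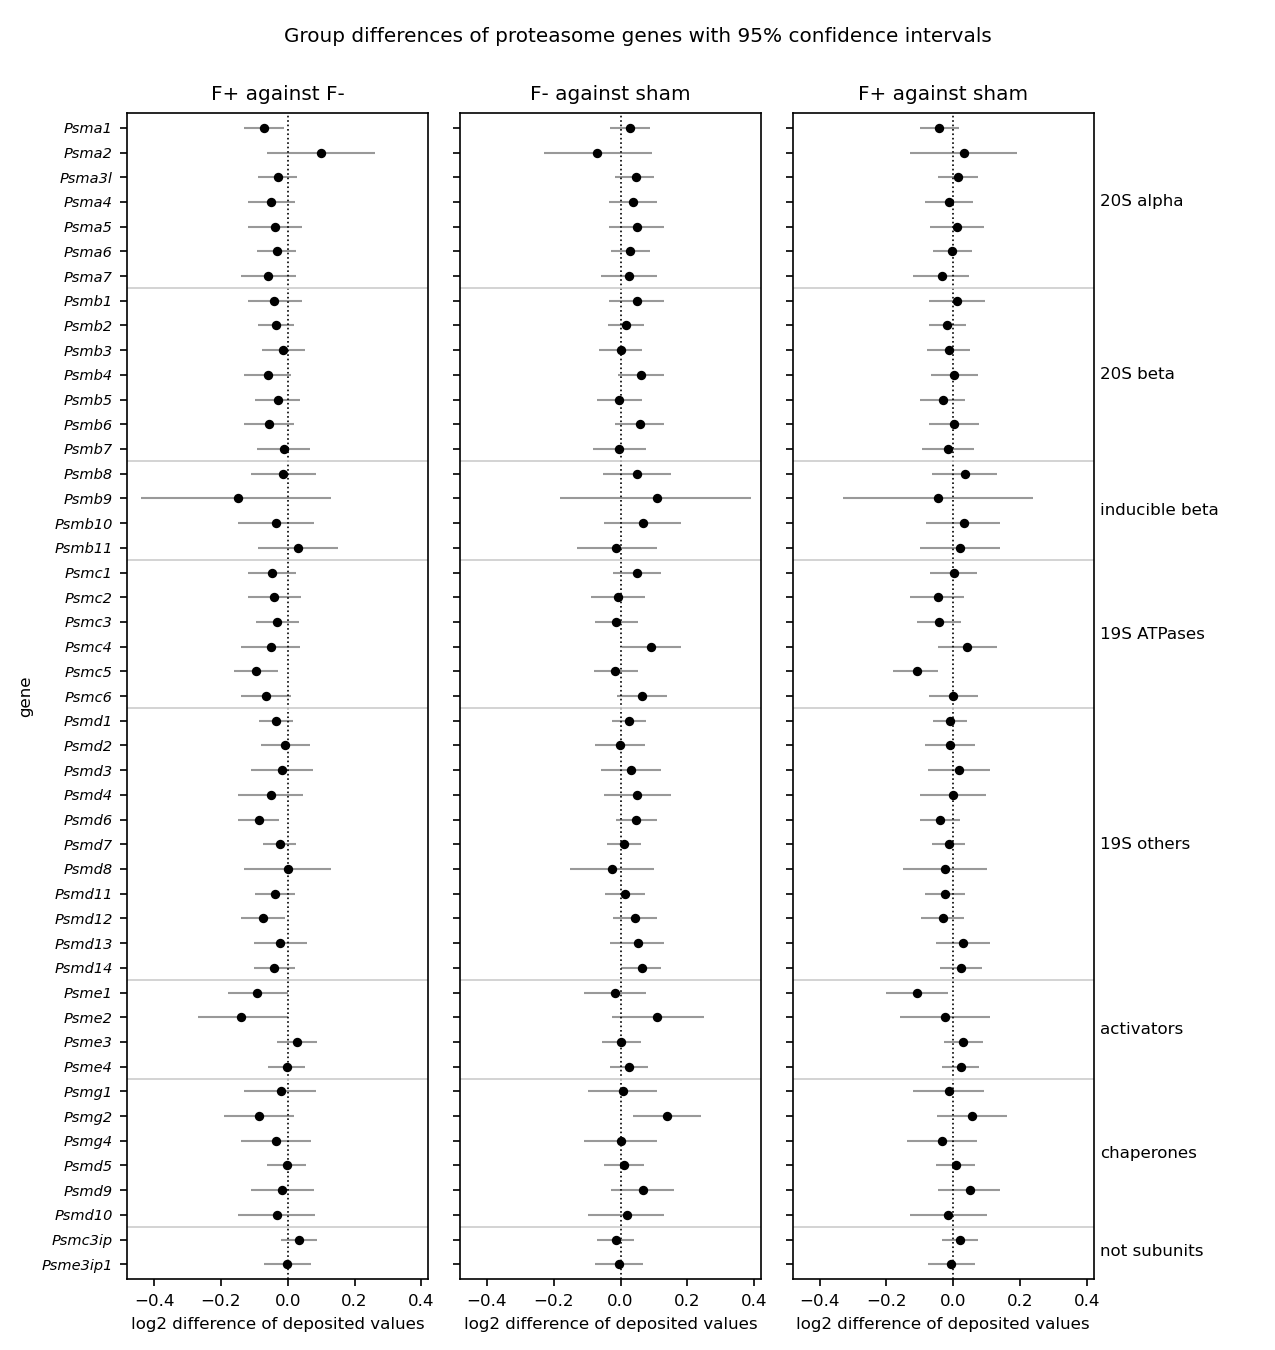
Log2 difference of mean deposited values (x axes) with its 95% confidence interval from limma for each of the 47 genes (y axis, grouped by role), for F+ against F-, F- against sham and F+ against sham. In F+ against F-, 42 points lie left of 0 and most intervals cross 0, and the widest interval belongs to Psmb9.

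The second comparison was of banded ventricles without fibrosis with sham-operated ones. The median difference of the 47 genes was 0.026, with a range from -0.069 to 0.14, beside -0.0025 over all features and 0.0079 over the brightest. None of the 47 genes passed the adjusted threshold in limma (0% of all features did), and 3 had an unadjusted p under 0.05, all with the higher mean in the F- group, where the share over all features was 3.07% (2.96% lower). Without 1 of sham arrays 1 or 3, F- array 2 or F+ array 2 this count was 1, and without F- array 3 it was 0. For 8 genes every F- value was above every sham value and for 0 below, beside 5.15% and 4.64% of all features and 8.16% and 4.68% of the brightest. The count of 8 was 4 after quantile normalization and 19 after median centring.

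Psmg2, whose product pairs with that of Psmg1 as a chaperone of alpha ring assembly, showed the largest statistic here. It gave 44.3, 46.9 and 43.4 on the sham arrays and 49.9, 47.5 and 50.9 on the F- arrays. The groups did not overlap, and the log2 difference was 0.14 (standard error 0.044, unadjusted p = 0.0141, adjusted p = 0.743 in limma). Its partner Psmg1 gave 64.6, 60.3 and 62.1 on the sham arrays and 65.5, 60.4 and 62.1 on the F- arrays, which overlapped fully. All 6 assembly chaperones had a higher mean in the F- group, though for 5 of them the groups overlapped.

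Psmc4, an ATPase of the cap, gave 81, 84.6 and 78.4 on the sham arrays and 85.5, 87.9 and 86.6 on the F- arrays. The difference of 0.092 (standard error 0.038, unadjusted p = 0.0414, adjusted p = 0.743 in limma) lay beside one of 0.078 for a second feature of the gene, which gave 75.8, 75.8 and 73.2 in the sham-operated group and 78.7, 80.1 and 78.5 in the F- group. Psmd14, the deubiquitinase of the lid that removes ubiquitin from the substrate, gave 71.9, 73.1 and 75 on the sham arrays and 77.7, 76 and 76.1 on the F- arrays, a difference of 0.063 (0.0011 to 0.12, adjusted p = 0.743 in limma). Neither gene overlapped between the groups. Psmb4, a beta subunit without a cutting site, had 73.6, 73.2 and 69.3 on the sham arrays and 73.8, 75.4 and 76.3 on the F- arrays, with the highest sham value just under the lowest F- value. For Psmc6, sham array 2 at 78.8 was above F- array 1 at 78.4, and the difference was 0.065 (-0.0097 to 0.14), or 0.042 without sham array 3. The difference of Psme2 was 0.11 (-0.025 to 0.25) and fell to 0.054 without F- array 2.

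Psmb6 gave 66, 64.6 and 67.3 on the sham arrays, all below its F- values, and its second feature, at 51.5, 54 and 53.9 in the sham-operated group and 56.9, 56.7 and 55.7 in the F- group, did not overlap either. Of the 7 genes with more than 1 feature, Psma6 showed a difference of 0.19 in its second, dim feature and of 0.029 in the one kept, and Psme2 showed -0.14 in both features in F+ against F-. Features of 1 gene on the same arrays are not replicates. In the RefSeq annotation, 18 of the 47 genes have pseudogenes or like genes named after them, 50 in all. Psmc4, Psmc6, Psmd8, Psmd12, Psmd14, Psma2, Psma6, Psmb4, Psmb6, Psmb7, Psme1, Psme2 and Psme3 are among these 18 genes, and signal from such copies was not tested.

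**Figure D4:**
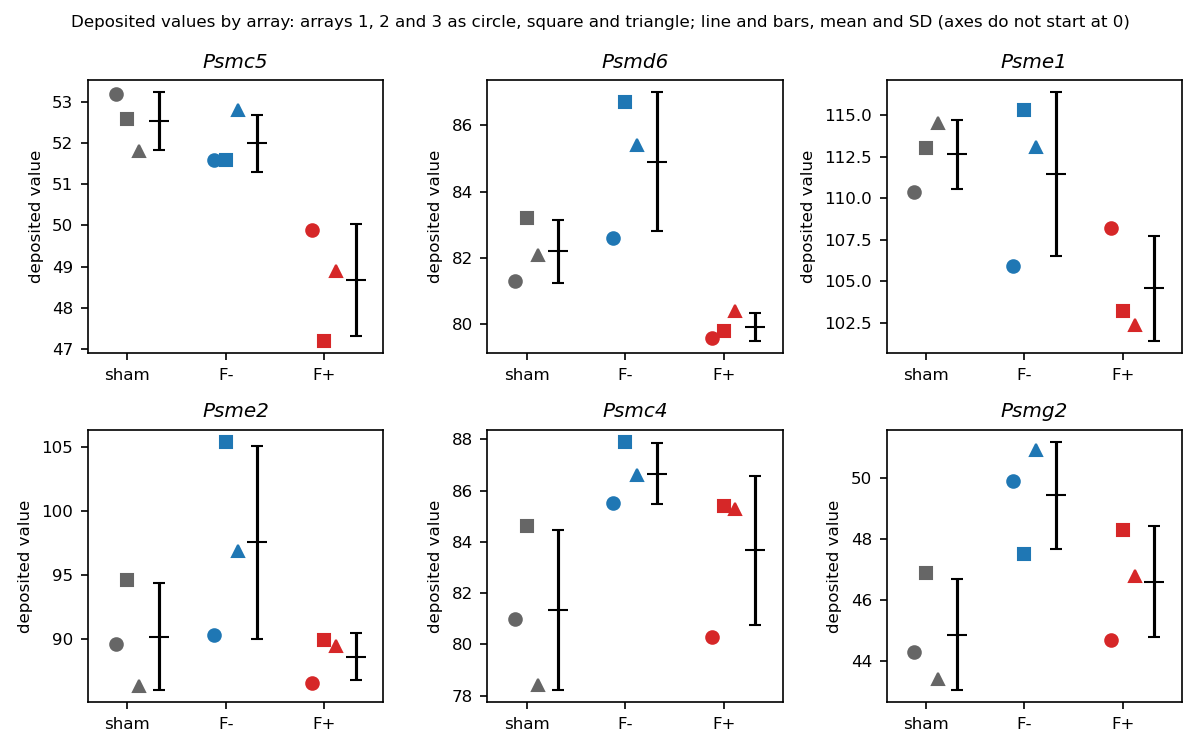
Deposited values (y axes, which do not start at 0) of Psmc5, Psmd6, Psme1, Psme2, Psmc4 and Psmg2 on the 3 arrays of each group (x axes; arrays 1, 2 and 3 as circle, square and triangle), with the mean and SD beside the points. All F+ points of Psmc5 lie between 47.2 and 49.9, under all other arrays, and all F- points of Psmg2 lie between 47.5 and 50.9, above the sham points.

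The third comparison, of fibrotic ventricles with sham-operated ones, gave no common direction. Of the 47 genes, 21 had a higher and 26 a lower mean, beside 47.5% and 52.4% of all features, and the median difference was -0.0058, beside -0.0035 over all features. It was 0.0054 without sham array 1 and 0.0013 after median centring. Again 0 of 47 passed the adjusted threshold in limma (0% of all features did). Psmc5 and Psme1 had an unadjusted p under 0.05 with the lower mean in the F+ group, where the share over all features was 3.9% (3.5% higher), and only 1 gene was left without sham array 3, F+ array 2 or F+ array 3. The groups did not overlap for Psma1, Psmc5, Psmd6 and Psme1, which were lower in the F+ group, and for Psme3, which was higher, beside 6.56% and 5.69% of all features and 9.96% and 9.79% of the brightest.

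The log2 difference of Psmc5 from the sham-operated group was -0.11 (standard error 0.028, unadjusted p = 0.00482, adjusted p = 0.6 in limma), close to its difference from the F- group, with which it shares the F+ arrays. Psme1 gave 110.4, 113 and 114.5 on the sham arrays, above all 3 F+ arrays, and a difference of -0.11 (standard error 0.039, unadjusted p = 0.027, adjusted p = 0.633 in limma). A second feature of Psme1, which gave 39.8, 43 and 42.3 on the sham arrays and 37.7, 37.4 and 40.1 on the F+ arrays, had a difference of -0.12 with 1 overlapping array. The differences of Psma1 and Psmd6 were -0.043 and -0.04, and both intervals crossed 0. Psmc3 and Psmc2, other ATPases of the cap, had differences of -0.043 (-0.11 to 0.022) and -0.047 (-0.13 to 0.033), and their groups overlapped. They were -0.025 without F+ array 1 for Psmc3 and -0.02 without sham array 1 for Psmc2. Psmb5 gave 114.8, 116.3 and 121.2 on the sham arrays, which overlapped with the F+ arrays.

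Of the inducible subunits of the immunoproteasome, Psmb9 and Psmb10 overlapped between groups in every comparison, and Psmb8 did so except between F- and sham. Psmb9, which replaces Psmb6, gave 62.7, 53.7 and 54 on the sham arrays, with 58, 69.8 and 56.3 on the F- arrays against 64.3, 52.4 and 49.1 on the F+ arrays. In each group 1 array was high, namely sham array 1, F- array 2 and F+ array 1. The F+ to F- difference of -0.15 had the widest interval of all 47 genes (-0.44 to 0.13, adjusted p = 0.785 in limma), and it was -0.058 without F- array 2 and -0.27 without F+ array 1. Psmb10, which replaces Psmb7, gave 42.7, 41.7 and 44.1 on the sham arrays, with 43.8, 46.8 and 43.9 on the F- arrays against 46.5, 41.4 and 43.5 on the F+ arrays. It was also highest on F- array 2 and F+ array 1 within the banded groups, but not on sham array 1. Psmb8, which replaces Psmb5, gave 39.9, 38.5 and 40.2 on the sham arrays, with 41, 41 and 40.7 on the F- arrays against 38.3, 40.2 and 43.1 on the F+ arrays, without this pattern. All F- values of Psmb8 were above all sham values, with a log2 difference of 0.049 (-0.051 to 0.15, adjusted p = 0.777 in limma), or 0.03 without sham array 2. Psmb11, a beta subunit of the thymus, was dim, at 19.9 to 22.8 on all arrays.

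Some other immune genes, picked here after their values were seen, had their highest value within each group on the same arrays as Psmb9. Tap2, which encodes a subunit of the transporter that carries proteasome peptides, gave 48.7, 48.1 and 48.4 on sham array 1, F- array 2 and F+ array 1, and 40 to 44 on the other 6 arrays. Tap1, its partner and the neighbour of Psmb9, gave 52, 53.5 and 54.4 on these 3 arrays, but sham array 3, at 51.7, and F- array 1, at 52.3, were close. RT1-S3, an MHC class I gene, gave 67, 68.7 and 70 on them and 59.6 to 64.2 on the others. Nkg7, a gene of natural killer and cytotoxic T cells, gave 70.6, 80.3 and 72.8, and 59.7 to 64.3 on the others. Of the other measured lymphocyte markers, Cd79b was also highest within each group on these arrays, at 32.4, 33.1 and 33. The rest were not, such as Cd8a, which had its highest sham value on sham array 2 (32.2). The macrophage gene C1qb did not follow Psmb9, with 60.7, 54.9 and 70.7, but Ptprc, of the same leukocyte list, did, with 56.1, 60.5 and 58.4. The interferon response genes Irf1 (57.5, 60.7 and 55.8) and Gbp5 (61.2, 63.8 and 60.4) were also highest there within each group. Of the same list, Cd74 (138.3, 141.5 and 140.9) and Ifng (23.1, 24.2 and 23.8) were too, and Gbp2 and Socs1 tied with another array. The rest were not, namely Irf7, Irf8, Irf9, Cxcl9, Cxcl10, Cxcl11, Ifit1, Ifit3, Mx1, Isg15, Ciita, Ifngr1 and Ifngr2. How many of all features share this pattern is not given here. The part of immune cells in the values of Psmb9 was not tested.

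**Figure D5:**
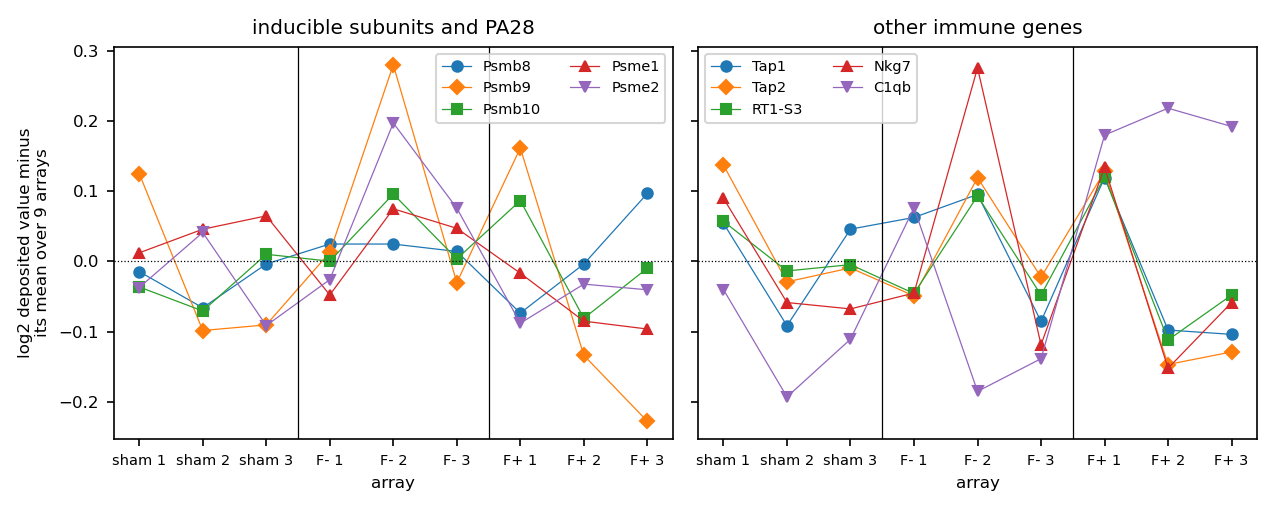
Log2 deposited value as a difference from the mean of the gene over 9 arrays (y axes) on each array (x axes), for inducible subunits and PA28 (left) and for other immune genes (right), with lines that only join the points of 1 gene. Psmb9, Tap2, RT1-S3 and Nkg7 peak on sham array 1, F- array 2 and F+ array 1, whereas C1qb is highest on the 3 F+ arrays, at 70.7 to 72.6.

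Exchange of subunits was read within each array as the log2 value of the inducible subunit minus that of the constitutive one it replaces, which compares groups and says nothing about the amounts of the 2 proteins. For Psmb10 over Psmb7 this was -1.28, -1.28 and -1.26 on the sham arrays, with -1.24, -1.15 and -1.23 on the F- arrays against -1.2, -1.26 and -1.22 on the F+ arrays. The differences from sham were 0.069 for the F- group, with 3 of 3 arrays above all sham arrays, and 0.047 for the F+ group, also with 3 of 3. Without F- array 2 the former was 0.04. Both had p = 0.1 in the two-sided exact permutation test, the smallest that 3 arrays against 3 allow, and adjusted p = 0.45 over 9 such tests. For Psmb8 over Psmb5 and Psmb9 over Psmb6, and for F+ against F- in all 3 pairs, the exact permutation p was 0.2 or more and the groups overlapped. No difference in exchange could thus be shown with this number of arrays.

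Promoters were read from RefSeq (GRCr8), which held a window for 41 of the 47 genes, for motifs of the pathways known to act on these genes. The 250 bases before the start site were searched on both strands for the core of the interferon-stimulated response element, GAAA followed after any 2 bases by another GAAA, and for TGACNNNGC, the core of the antioxidant response element. The former occurred in Psma4, Psmb3, Psmb10, Psmd7 and Psme2, or 12.2% of the 41 windows, beside 3.41% of all 33469 promoters. The latter occurred in Psmb2, Psmb5, Psmb6, Psmd1, Psmd9 and Psme4, or 14.6%, beside 10.1% of all. A match is only a description of the letters. The last 150 bases before the start site are shown, 5′ to 3′ on the strand of the gene with the motif in capitals, for the genes whose array patterns are described above. Of the genes with the interferon motif, Psmb10, with a pair of matches, and Psme2 and Psmd7, with 1 each, peaked on F- array 2. Psma4 (67.5) and Psmb3 (88.8) had their lowest F- value on that array. Psmb9, without a match in the 250 bases searched, also peaked there (69.8). So did genes listed with neither motif, such as Psme1 (115.3) and Psmd6 (86.7). Of the genes with the antioxidant core, Psmb2 (107.3), Psmb6 (69.7) and Psmd1 (97) peaked there, and Psmb5, Psmd9 and Psme4 did not. Psmb9 and Tap1 start 456 bases apart and point away from each other. In Psmb9 neither motif is in the window, and in Tap1 the capitals mark the interferon motif read from the opposite strand. This Tap1 match lies between the start sites of both genes, beyond the 250 bases searched for Psmb9.
Psmb10 (chr19:50743293-50743442, minus strand): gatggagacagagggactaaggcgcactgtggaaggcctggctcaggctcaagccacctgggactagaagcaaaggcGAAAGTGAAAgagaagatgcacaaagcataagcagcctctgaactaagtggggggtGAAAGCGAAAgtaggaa
Psme2 (chr15:33052752-33052901, minus strand): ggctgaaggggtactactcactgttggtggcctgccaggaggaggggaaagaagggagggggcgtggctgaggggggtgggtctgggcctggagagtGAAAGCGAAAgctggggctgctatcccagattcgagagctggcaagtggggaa
Psmb9 (chr20:4668850-4668999, plus strand): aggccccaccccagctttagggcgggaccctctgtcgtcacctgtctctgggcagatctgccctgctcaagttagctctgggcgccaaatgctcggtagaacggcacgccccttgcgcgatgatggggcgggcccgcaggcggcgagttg
Tap1 (chr20:4668544-4668693, minus strand): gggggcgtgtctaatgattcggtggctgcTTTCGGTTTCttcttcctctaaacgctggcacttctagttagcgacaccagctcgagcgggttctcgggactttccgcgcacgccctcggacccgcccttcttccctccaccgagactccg

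The constitutive catalytic genes Psmb5 and Psmb6 are shown because each carries the antioxidant core close to its start, while their values differed. Psmb6 separated the F- group from both other groups, and Psmb5 overlapped in every comparison.
Psmb5 (chr15:32047380-32047529, minus strand): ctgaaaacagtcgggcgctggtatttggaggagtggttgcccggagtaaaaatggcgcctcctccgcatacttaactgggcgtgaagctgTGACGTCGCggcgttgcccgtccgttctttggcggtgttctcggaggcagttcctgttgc
Psmb6 (chr10:55737738-55737887, plus strand): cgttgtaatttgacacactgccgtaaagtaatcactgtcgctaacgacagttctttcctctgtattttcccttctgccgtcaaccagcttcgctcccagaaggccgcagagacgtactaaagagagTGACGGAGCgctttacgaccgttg

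Genes that work with the proteasome outside the rule also held 0 that passed the threshold in limma in any comparison. Of 19 measured partners and regulators, 12 had a lower mean in F+ against F-, with a median of -0.0067, and 12 a higher mean in F- against sham. The shares were 51.6% and 48.2% of all features, and 57.7% and 57.2% of the brightest, in the same order. Ngly1, whose product processes the transcription factor that drives proteasome genes, gave 42.3 on all 3 sham arrays, 45.4, 44.1 and 44.2 on the F- arrays against 41.9, 40.7 and 41.5 on the F+ arrays. The log2 difference between F+ and F- was -0.11 (unadjusted p = 0.0021, adjusted p = 0.499 in limma). The equal sham values lower the estimate of spread that this fit shares between the groups. Pomp, the maturation factor of the core, gave 75.1, 76.2 and 73.4 on the sham arrays, with 77.8, 81 and 81.4 on the F- arrays against 76.3, 77.8 and 71.2 on the F+ arrays. Its F- values were the highest or tied with F+ array 2, and both genes shared with most proteasome genes the F- group as the one with the highest mean. Nfe2l1, which encodes that transcription factor and was picked after its values were seen, gave 84.1, 85.7 and 86.9 on the F- arrays against 90.6, 87.7 and 88.2 on the sham arrays.

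Of 14 ubiquitin, E1 and E2 genes, 11 had a lower mean in F+ against F- and 10 a higher mean in F- against sham. The shares were 51.6% and 48.2% of all features, and 57.7% and 57.2% of the brightest. Ube2n, an E2 that builds ubiquitin chains used in signalling, gave 63.2, 68.5 and 66.7 on the sham arrays, with 70.4, 70.7 and 71.7 on the F- arrays against 67.5, 68.5 and 64.5 on the F+ arrays. Ube2b, another E2, gave 105.2, 106.7 and 108.5 on the F- arrays against 102.8, 102.6 and 103.5 on the F+ arrays. The F+ and F- groups did not overlap for either gene. Of 18 muscle and cardiac ubiquitin ligases, 10 had a lower mean in F+ against F-, which is near the shares of all and of the brightest features. Fbxo32 and Trim63, the muscle ligases atrogin-1 and MuRF1, had log2 differences of -0.085 and -0.086 (adjusted p = 0.673 and 0.674 in limma). Fbxo32 gave 101.1, 106.2 and 106.5 on the F- arrays against 97.4, 101.8 and 96.7 on the F+ arrays, with 1 overlapping pair.

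Of 12 genes of peptide loading on MHC class I, 11 had a lower mean in F+ against F-, with a median of -0.017. The share was 51.6% of all features and 57.7% of the brightest. The largest statistics belonged to Calr, a chaperone of the loading complex, with a difference of -0.055 (adjusted p = 0.722 in limma), and to RT1-T24-1 with -0.057 (adjusted p = 0.809). Of 19 genes of the interferon gamma response, 13 had a lower mean, beside the same shares, with a median of -0.029. Isg15, a ubiquitin-like modifier, gave 34.9, 34.7 and 31.6 on the F- arrays against 29.8, 30.1 and 32.8 on the F+ arrays, and its difference was -0.13 (adjusted p = 0.671 in limma). Ifngr2, a receptor subunit for interferon gamma, differed the other way, by 0.048 (adjusted p = 0.707).

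Some lists of cell type markers differed between the same groups as the proteasome genes, and 0 of their genes passed the adjusted threshold in limma in any comparison. In F+ against F-, 51.6% of all features had a lower and 48.2% a higher mean (57.7% and 42.3% of the brightest). All 10 cardiomyocyte markers had a lower mean in the F+ than in the F- group and the median was -0.016, with sums of 1570 to 1594 on the F+, 1593 to 1623 on the F- and 1578 to 1614 on the sham arrays. Of 12 macrophage and other leukocyte markers, 11 had a higher mean in the F+ than in the F- group and the median was 0.2, with sums of 775.8 to 796.4 on the F+, 646.5 to 775.5 on the F- and 648.9 to 700.6 on the sham arrays. All 5 red cell markers, with sums of 180.4 to 292.2, 129.6 to 143.9 and 144.5 to 161.5 in the same order, and all 6 smooth muscle and pericyte markers also had a higher mean in the F+ group. The other lists were mixed in F+ against F-. A higher mean was found for 5 of 8 fibroblast, 4 of 6 endothelial, 6 of 9 lymphocyte and 1 of 3 atrial markers. Their medians were 0.017, 0.024, 0.06 and -0.0043 in the same order. The lowest value of a marker on any array was 4.7, in the red cell list. The part of these cell types in the values of the proteasome genes was not tested.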

How the data were processed

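Total RNA of right ventricles was hybridized by the authors to Affymetrix Rat Gene 1.0 ST arrays, 3 per group, and intensities were deposited in 1 table of 29215 features. Normalization, scale and software are not given in the sources used here, and no deposited column was left unused (0). The methods name TRIzol and cDNA for these arrays, while the labels name Sepasol and cRNA. The methods describe averaged triplicate hybridizations. They name rank tests and analysis of variance for the study without tying them to the arrays.

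Log2 values of the deposited intensities entered a limma 3.58.1 fit in R 4.3.3 (lmFit, eBayes), with 1 mean per group over all 9 arrays. P-values of each of the 3 comparisons were corrected over the 29215 features (Benjamini-Hochberg), with a threshold of 0.05. The number of arrays limits the precision. Subunit exchange was tested with two-sided exact permutation tests. The procedure was tested on simulated data. The simulated differences were larger than any of the proteasome genes, so this test does not cover differences of the size reported here. Genes were named from the platform annotation (15310 features with 1 symbol, 323 with several, 13582 not listed), and 46 of the 47 genes matched RefSeq (GRCr8) by gene ID. Python 3.11.15 and matplotlib 3.10.9 were used for promoters and plots.

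The 6 genes with the largest moderated statistic in each comparison were named, with Psmb5 to Psmb10 and Psme1 to Psme4, and the 2 leading genes of each related list in F+ against F-. Fitted differences of the latter subunits are printed only where the statistic exceeded 1. Tap1, Tap2, RT1-S3, Nkg7, C1qb, Nfe2l1, Psma2, Psmd8, Psma6, Psmg1 and Psmb11 were added after their values were seen. So were Cd79b, Cd8a, Ptprc, Irf1 and Gbp5, with the interferon response genes named beside them. The values of Psma4, Psmb3, Psmd7 and the other genes set beside the motifs were also added then. The genes and lists were chosen with earlier results of these data known. Alternatives were quantile normalization, median centring, leaving out dim features, single-symbol features only, a replicate block, only the 2 groups compared, trend and robust priors, square roots, untransformed values, averaged features per gene, and leaving out arrays.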

Additional observations from a re-analysis of the deposited data

How the results depend on the processing

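No proteasome gene passed the adjusted threshold in limma under any alternative, and no named difference changed direction in any of 560 values from refits of single genes. The counts below are of the 47 genes and the values are median log2 differences unless another scale is named. Quantile normalization gave medians of -0.031 (F+ against F-), 0.015 (F- against sham) and -0.0097 (F+ against sham), and 1 gene with an unadjusted p under 0.05 for F- against sham. Median centring gave medians of 0.035 for F- against sham and 0.0013 for F+ against sham. On square roots the medians were -0.1, 0.089 and -0.016 in the same order. On untransformed values they were -1.8, 1.6 and -0.27, with 10 and 7 genes under an unadjusted p of 0.05 in the first and second comparison. Averaging the features of each gene gave 5 such genes for F- against sham and a median of -0.0016 for F+ against sham. Without sham array 2 and F- array 1 together, 9 genes had a higher mean in F+ against F-, 6 had an unadjusted p under 0.05 in F- against sham, and the median of F+ against sham was -0.011. The shares of all features with an unadjusted p under 0.05 in the limma refits of this section are not given here. Counts of such genes therefore have no background beside them. The causes were not tested.

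In alternatives added after seeing the data, genes without overlap between groups numbered 6 (quantile normalization) in place of 16 for F+ below F-, beside 5.45% of all features. For F- above sham they numbered 4 (quantile normalization, beside 5.76%) and 19 (median centring, beside 8.75%) in place of 8.

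Leaving out 1 array at a time gave medians of -0.038 to -0.029 for F+ against F-, 0.02 to 0.034 for F- against sham and -0.012 to 0.0054 for F+ against sham. Genes with a higher mean numbered 5 to 9, 31 to 39 and 16 to 26 in the same order. Genes with an unadjusted p under 0.05 numbered 2 to 6, 0 to 4 and 1 to 2. Of the subunit exchanges, those that changed sign were Psmb9 over Psmb6 in F- against sham (-0.034 to 0.12) and in F+ against sham (-0.15 to 0.025), Psmb10 over Psmb7 in F+ against F- (-0.039 to 0.0071) and Psmb8 over Psmb5 in F+ against F- (-0.031 to 0.062).

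Arrays with the same number did not deviate together (correlations of -0.21 to 0.053 over 9 pairs). Pairs with unlike numbers gave -0.12 to 0.26, the highest for F- array 2 with F+ array 1. A batch or animal shared in another order was not tested. With the number as a replicate block, 1 gene in place of 2 had an unadjusted p under 0.05 in F+ against sham, and no other count moved by over 1.5 times.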
